A study of Mus musculus with 27 samples.

Results

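Mest is an imprinted gene of mouse chromosome 6, and its CpG positions were read here in hepatocytes of 9 inbred strains. The members were the positions of chromosome 6 between 5 kb before and 5 kb after the gene (GRCm38, 6:30733506 to 30748466, 14961 bp, gene 17294) that were listed in at least 2 of the 3 samples of every strain. This rule took 57 of the 127 positions that any sample listed there, against 1951628 of 5240332 in the whole genome. Each strand of a CpG is its own position, and the 57 positions stood for 36 CpGs, 21 of them read on both strands. The gene itself was chosen by its percent methylation within 1 kb of the lower-coordinate end, which an earlier look at these data had found to differ among strains, so the 17 positions there are described and not tested, and the other 40 were tested.

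The study measured DNA methylation by reduced representation bisulfite sequencing (RRBS), in which DNA is cut at CCGG by MspI and CpGs near the cuts are read after bisulfite treatment. All 27 samples were liver hepatocytes of female mice aged 12 weeks, for which the labels name no treatment, with 3 biological replicates of each strain: C57BL/6J, 129S1/SvImJ, DBA/2J, A/J, NZO/HlLtJ, NOD/ShiLtJ, WSB/EiJ, CAST/EiJ and PWK/PhJ. The last 3 of these are wild-derived strains, NOD/ShiLtJ is a model of autoimmune diabetes and NZO/HlLtJ a model of obesity. The p-values below measure the spread between such replicates.

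An imprinted gene carries a methylation mark on the copy from one parent only. At Mest the mark is set in the egg, so that the maternal copy is methylated at the promoter and the paternal copy is expressed; the gene encodes an enzyme-like protein of the alpha/beta-hydrolase fold and is known for its expression in mesoderm and growing fat tissue. Where 1 copy is methylated and the other is not, bisulfite sequencing of the mixture gives an intermediate percent. In an inbred mouse both copies have the same sequence, so 1 methylated copy in every cell and a mixture of cells cannot be told apart here.

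RefSeq (GRCm38.p6) gives Mest starts at 3 positions, all on the plus strand. The first is at 30733506, the lower-coordinate end of the gene. The other two are at 30738050 and 30738053, that is 4544 bp and 4547 bp into the gene. The 250 bases before the first and the second start are shown because the strain difference described below lies outside both of them; capitals mark each CpG.
Before the first start, chr6:30733256-30733505, plus strand: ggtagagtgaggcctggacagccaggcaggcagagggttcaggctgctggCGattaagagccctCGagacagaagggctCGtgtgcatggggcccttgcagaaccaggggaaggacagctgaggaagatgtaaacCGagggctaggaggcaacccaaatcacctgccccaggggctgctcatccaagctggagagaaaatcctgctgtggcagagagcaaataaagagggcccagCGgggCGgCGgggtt
Before the second start, chr6:30737800-30738049, plus strand: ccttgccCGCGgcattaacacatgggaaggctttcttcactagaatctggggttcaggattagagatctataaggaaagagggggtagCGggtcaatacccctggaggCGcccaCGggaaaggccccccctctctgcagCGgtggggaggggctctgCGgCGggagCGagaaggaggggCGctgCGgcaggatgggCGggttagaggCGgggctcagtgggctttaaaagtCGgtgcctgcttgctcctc
The stretch before the first start held 7 CpGs and that before the second held 14. With the 50 bases after each start added, the windows held 8 and 17 CpGs, and 48.6% and 31.4% of 32817 RefSeq promoter windows of that length held as many (median 7). No CCGG lay in the first window, and 1 lay in the second, at 30738073; 52.8% of all promoter windows held one. No member fell in either window.

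Along the gene the 57 positions fell into 5 groups, with gaps of at most 500 bp inside a group. Group 1 had 18 positions 1094 to 302 bp before the first start, and its mean over all samples was 57%. Group 2 had 8 positions at 1788 to 2003 bp past the first start, with a mean of 41.6%. Group 3 had 18 positions at 4604 to 5828 bp, which is 60 to 1284 bp past the second start, and its mean was 43.6%. Group 4 had 12 positions in the gene body at 9098 to 9531 bp and was highly methylated, at 94.3%. Group 5 was a single position 4092 bp beyond the upper-coordinate end of Mest, inside the neighbouring gene Copg2, which codes for a coatomer subunit. In group 1 the strain means ran from 40% in DBA/2J to 86.5% in CAST/EiJ.

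**Figure D1:**
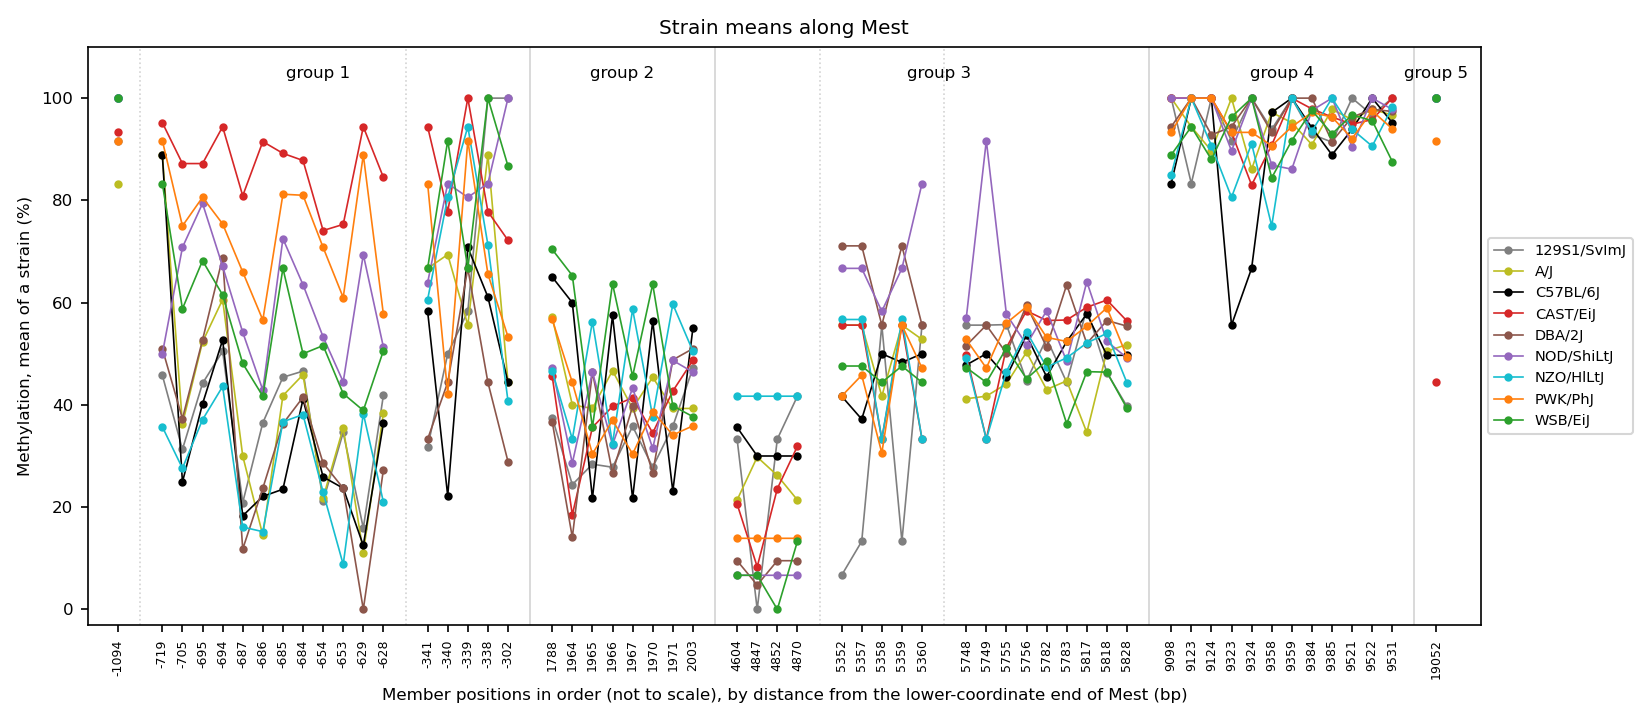
Mean methylation of each strain (y axis, percent) at the 57 member positions in genome order (x axis, distance from the lower-coordinate end of Mest in bp, evenly spaced and not to scale); solid vertical lines part the 5 groups and dotted lines mark other gaps over 250 bp. Between -705 and -628 the strains are spread apart, with CAST/EiJ, PWK/PhJ, NOD/ShiLtJ and WSB/EiJ in much the same order. The lines of the other strains cross there, and the lines of the strains also cross in groups 2 and 3.

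The strain difference was clearest at 11 neighbouring positions, 705 to 628 bp before the first start (6:30732801 to 30732878, 78 bp, 6 CpGs), called the core here. These 11 positions were contiguous members at which the strain means ranged over at least 25 percentage points and over at least 3 times the pooled within-strain SD. That second condition was added after the values were seen, and 9.27% of the 868536 positions tested in the genome met both. Since these conditions chose the 11 positions, their values are a description and have no test. In CAST/EiJ the mean over the core was 84.7%, 85.4% and 88.1% in the 3 samples (86.1% ± 1.79, SD, n = 3). PWK/PhJ had 59.1%, 75.6% and 81.9% (72.2% ± 11.8, SD, n = 3), and NOD/ShiLtJ had 54.6%, 63.5% and 64.3% (60.8% ± 5.38, SD, n = 3). WSB/EiJ had 44.5%, 53.5% and 59.7% (52.6% ± 7.64, SD, n = 3).

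The other 5 strains lay lower at the core. In 129S1/SvImJ the samples had 32.1%, 34.3% and 39.8% (35.4% ± 3.97, SD, n = 3), and in A/J 31.1%, 33.7% and 41.1% (35.3% ± 5.21, SD, n = 3). DBA/2J had 29.5%, 29.9% and 36.5% (32% ± 3.93, SD, n = 3). C57BL/6J, the strain of the reference genome, had 17.6%, 35% and 37.1% (29.9% ± 10.7, SD, n = 3), and NZO/HlLtJ had 23.9%, 28.4% and 31.0% (27.8% ± 3.59, SD, n = 3). Every sample of the 4 higher strains was at 44.5% or above, and every sample of the 5 lower strains was at 41.1% or below. The 3 CAST/EiJ samples lay above all the other 24 samples, whereas PWK/PhJ overlapped NOD/ShiLtJ and WSB/EiJ, NOD/ShiLtJ overlapped WSB/EiJ, and among the 5 lower strains NZO/HlLtJ reached neither 129S1/SvImJ nor A/J while the others overlapped.

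**Figure D2:**
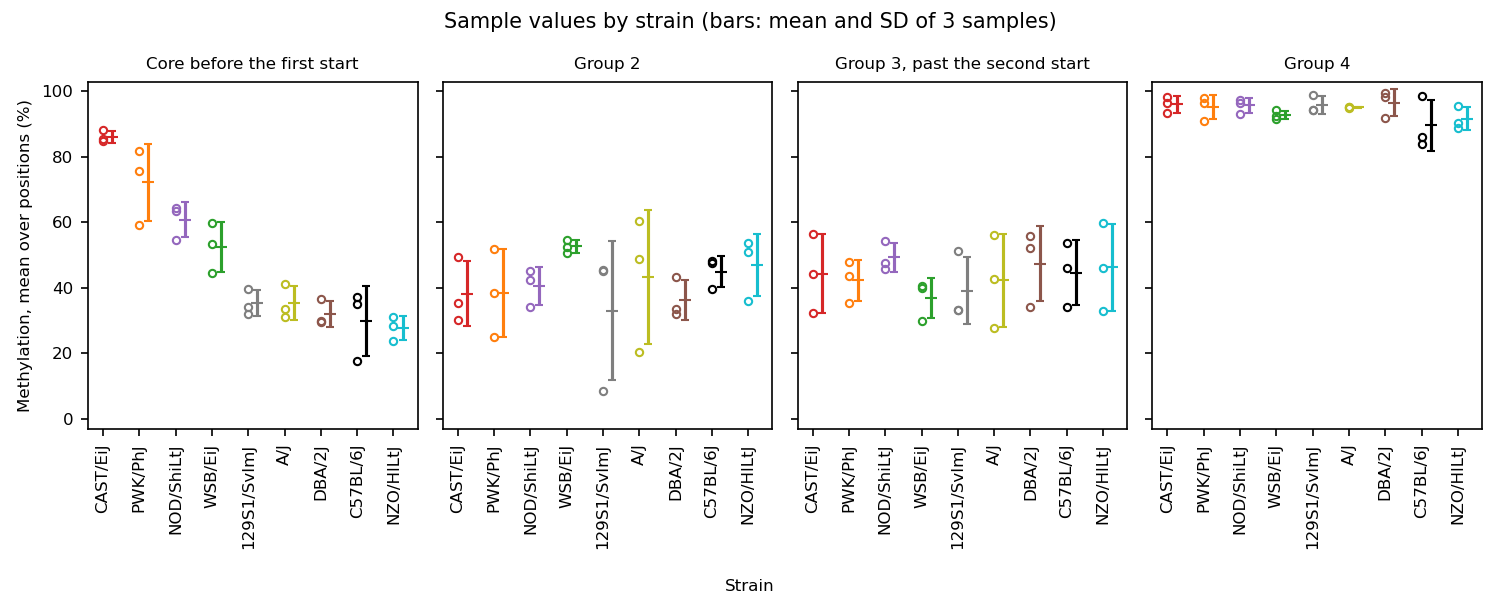
Mean methylation (y axis, percent) of each sample (open circles) by strain (x axis, in the order of the core) at the core and in groups 2, 3 and 4; the bars are the mean and SD of 3 samples. At the core the strain means run from 86.1% in CAST/EiJ to 27.8% in NZO/HlLtJ, and in groups 2 and 3 they lie between 33.1% and 52.7%.

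The order of the 4 higher strains was much the same at each core position, and the lower strains changed places. CAST/EiJ was the highest strain at 11 of 11 positions and PWK/PhJ next at 11 of 11. NOD/ShiLtJ had rank 3 or 4 at all 11, and WSB/EiJ rank 4 or 5. NZO/HlLtJ was the lowest at 5 of the 11, C57BL/6J and DBA/2J at 2 each, and 129S1/SvImJ and A/J at 1 each. DBA/2J had ranks 3 to 9, 129S1/SvImJ, A/J and NZO/HlLtJ 5 to 9, and C57BL/6J 6 to 9. At 30732812 DBA/2J ranked 3, with 68.8% against 67.1% in NOD/ShiLtJ. All 3 CAST/EiJ samples exceeded all samples of C57BL/6J at 11 of 11 positions, of WSB/EiJ at 11, of NOD/ShiLtJ at 8 and of PWK/PhJ at 2. The conditions that chose these positions favour such separation, and its share over all tested positions was not counted. The range of strain means was 49.7 to 94.4 points over the core positions, at a median within-strain SD of 11.6 points, and the range was 3.89 to 8.65 times the SD. Neighbouring positions come from the same samples, and those on the same strand can share reads, so they are no independent replicates of this order.

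**Figure D3:**
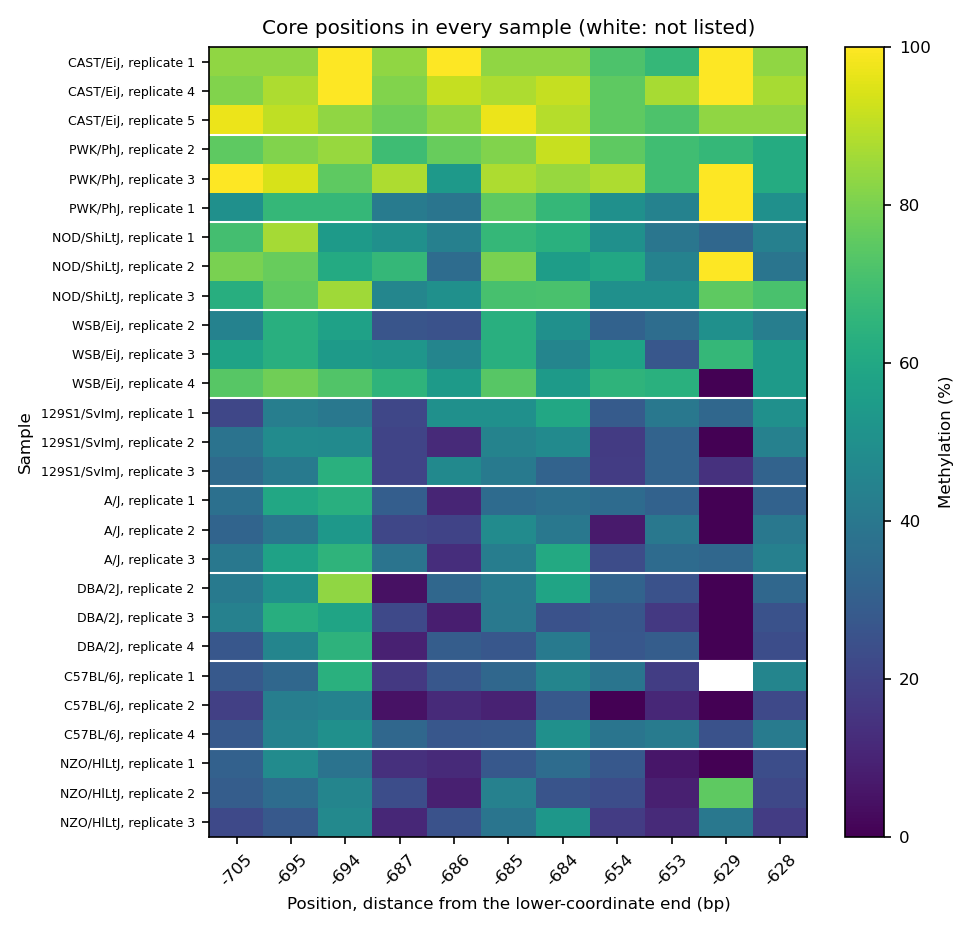
Methylation (colour, 0 to 100%) at the 11 core positions (x axis, distance from the lower-coordinate end of Mest in bp) in each of the 27 samples (y axis), with strains in the order of their core means; white marks a position not listed. CAST/EiJ and PWK/PhJ are at the top at 86.1% and 72.2%, and most values at 0% are at the position -629.

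The strands of a CpG were read separately, and 5 of the 6 core CpGs were read on both. Between the strands of these 5 CpGs the strain means correlated at r = 0.792 to 0.921 over the 9 strains, as a description of values from the same libraries. In CAST/EiJ the 5 CpGs had 85.2% on the plus strand and 86.7% on the minus strand, in C57BL/6J 25.3% and 35.2%, and in NOD/ShiLtJ 65.8% and 53.9%. Both strands thus put CAST/EiJ above C57BL/6J by far more than the strands differed from each other. The core was chosen for strain means far apart, so this correlation is no support for the difference. At the CpGs of 30733165 and 30733167, also within 1 kb of the first start, it was 0.337 and -0.298.

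The largest strain range of any member was at 30732877, 629 bp before the first start. CAST/EiJ had 83.3%, 100% and 100% there, PWK/PhJ 66.7%, 100% and 100%, and NOD/ShiLtJ 33.3%, 75.0% and 100%. NZO/HlLtJ had 0%, 40% and 75.0%, WSB/EiJ 0%, 50% and 66.7%, 129S1/SvImJ 0%, 14.3% and 33.3%, and A/J 0%, 0% and 33.3%. C57BL/6J had 0% and 25% in the 2 samples that listed it, and DBA/2J 0% in all 3. The range was 94.4 points at a pooled SD of 24.3. The other strand of this CpG, at 30732878, the last position of the core, had a narrower range of 63.6 points and a smaller SD of 8.95. There CAST/EiJ had 83.3%, 83.3% and 87.0%, PWK/PhJ 50%, 61.5% and 61.5%, NZO/HlLtJ 17.6%, 21.7% and 23.5%, and DBA/2J 23.5%, 25% and 33.3%. The first position of the core, 30732801, had 81.2%, 83.3% and 96.9% in CAST/EiJ, 50%, 75.0% and 100% in PWK/PhJ, and 19%, 27.8% and 27.8% in C57BL/6J.

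Just outside the core the values scattered within strains. At 30732787, 14 bp before the core, the strain means ran from 35.7% in NZO/HlLtJ to 95.2% in CAST/EiJ, but A/J and C57BL/6J, which were low in the core, both stood at 88.9% and the pooled SD was 27.7. The other strand of this CpG, at 30732788, was listed in 1 WSB/EiJ sample; there A/J had 90.5% and C57BL/6J 50%, and DBA/2J had 87.8% against 51.0% at 30732787. The next member before it, at 30732412, had a mean of 95.5% and a range of 16.7 points (limma F test, adjusted p = 0.863), with 100% in all 3 samples of C57BL/6J, DBA/2J, NOD/ShiLtJ and WSB/EiJ. On the other side, the 5 positions 341 to 302 bp before the first start had strain means from 43.6% in DBA/2J (0%, 46.7% and 84.0%) to 84.4% in CAST/EiJ (70.0%, 83.3% and 100%). Their median within-strain SD was 30.9 points, and the samples of these end strains overlapped. The core lay 5172 to 5249 bp before the second start, so its strain difference is described here as one upstream of the gene and not at that start.

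How far the strain difference reaches depended on the rule. With a strain range of at least 25 points as the single condition, as planned, and at most 2 positions in a row below it, the stretch ran from 30732787 to 30739255, 6469 bp, and 34 of its 36 positions met the condition. Of all tested positions in the genome 33.6% met this condition, which takes no account of the spread within strains. The stretch also crossed gaps without a member, among them 2090 bp between 30733204 and 30735294. Its length is therefore no measure of how far the strain difference reaches. At its far edge, 30739255, the range of 58.3 points came with an SD of 43.2, while 30739254, the other strand of the same CpG, had a range of 15.7 points and 30739261, the first position outside, 13.6. With the added condition on the SD the stretch was the 78 bp of the core. Its edges depend on where positions were read and on their scatter. No member lay between 30732878 and 30733165 or between 30732412 and 30732787. The flanking positions at 30732787 and from 30733165 to 30733204 had pooled SDs of 27.7 to 36.1 points. The 78 bp are thus no measured limit of the strain difference. Leaving out 1 sample at a time left these 78 bp in 25 of 27 cases; without DBA/2J replicate 3 the stretch was 368 bp (to 30733168), and without NZO/HlLtJ replicate 1 it was 92 bp.

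**Figure D4:**
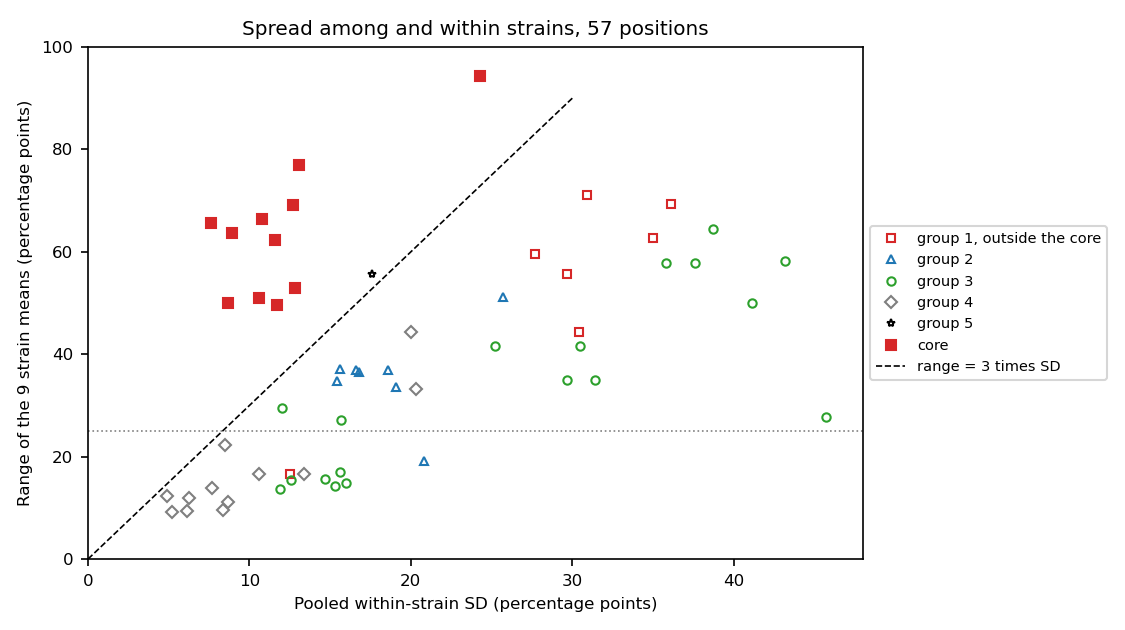
Range of the 9 strain means (y axis, percentage points) against the pooled within-strain SD (x axis, percentage points) for each of the 57 member positions; the dashed line is a range of 3 times the SD and the dotted line a range of 25 points. The 11 core positions and the single position of group 5 lie above the dashed line, and positions of group 3 have an SD of up to 45.7 points.

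Outside 1 kb of the lower-coordinate end, no position passed the test for a strain difference. Of the 40 positions 0 were called with limma's moderated F statistic (a genome-wide adjusted p under 0.05 together with a range of at least 25 points), where 4.33% of all tested positions were. At an unadjusted p under 0.05 there was 1 of the 40, against 15.4% of all tested positions. In 22 of the 40 the strain means ranged over at least 25 points, against 33.6% of all tested positions. In 1 of these the range also reached 3 times the SD, where 9.27% of all tested positions met both conditions. The median ratio of range to SD was 2.08 in group 2, 1.22 in group 3 and 1.70 in group 4, against 1.85 over all tested positions. The files give no read number, and a strain difference smaller than the spread between samples was not detectable here. Ranges above that spread also went uncalled. At 30739323 the range was 29.5 points at an SD of 12.0 (limma F test, adjusted p = 0.685). At 30738858 it was 64.4 points at an SD of 38.7 (adjusted p = 0.805). The 0 of 40 is thus no evidence that the strains are alike at these positions.

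In group 2, between the starts, 129S1/SvImJ had the lowest mean, 33.1% ± 21.3 (SD, n = 3), and WSB/EiJ the highest, 52.7% ± 1.95 (SD, n = 3). The 129S1/SvImJ samples had 8.48%, 45.1% and 45.6%, the WSB/EiJ samples 50.8%, 52.6% and 54.7%, and the CAST/EiJ samples 30.2%, 35.4% and 49.4%. One 129S1/SvImJ sample, replicate 1, was the lowest of all 27, and the WSB/EiJ samples lay within the range of A/J (20.6%, 48.8% and 60.5%). A permutation test of the F statistic over the 9 strains (100000 resamples) gave F = 0.727, with an adjusted p of 0.879 over the 4 groups tested. CAST/EiJ, the highest strain of the core, had 38.3% here, against 45% in C57BL/6J, but the order of these strains turned with the strand. At the 3 CpGs of group 2 read on both strands, C57BL/6J had 56.4% to 60% on the plus strand, where CAST/EiJ had 18.5% to 39.7%. On the minus strand C57BL/6J had 21.7% to 23.1% and CAST/EiJ 35.6% to 42.7%. The strain means of the strands correlated at -0.453 to -0.258 over the 9 strains, so the group mean averages strands that differ. The position with the widest range, 30735470, had strain means from 14.1% in DBA/2J (0%, 20% and 22.2%) to 65.3% in WSB/EiJ (37.5%, 75.0% and 83.3%), a range of 51.2 points (limma F test, adjusted p = 0.567).

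Group 3, just past the second start, had strain means from 36.9% ± 6.08 (SD, n = 3) in WSB/EiJ to 49.3% ± 4.55 (SD, n = 3) in NOD/ShiLtJ. The samples had 29.8%, 40.1% and 40.6% in WSB/EiJ, 45.7%, 47.7% and 54.4% in NOD/ShiLtJ, 32.5%, 44.3% and 56.5% in CAST/EiJ, and 34.3%, 46.0% and 53.8% in C57BL/6J. CAST/EiJ at 44.4% and C57BL/6J at 44.7% stood side by side. The samples of WSB/EiJ and NOD/ShiLtJ did not overlap, and those of each of the other 7 strains overlapped both. The permutation test gave F = 0.434 (adjusted p = 0.879). Within the group the 4 positions at 4604 to 4870 bp had a mean of 20.2%, at a median within-strain SD of 30.1 points. NZO/HlLtJ, the most scattered strain there, had 0%, 25% and 100%. The positions from 30738074 to 30738357 that missed the rule but were listed in 21 to 24 samples had means of 11.8% to 23.6%. At 30738375, listed in 8 samples, the mean was 87.5%. The best-listed positions next to the start were thus low, but at this scatter and an unknown depth a lower level there is not settled. The 5 positions at 5352 to 5360 bp had a mean of 49.0%, and the 9 positions at 5748 to 5828 bp 51.1%. The last 9 were the steadiest, with strain means from 44.7% in A/J to 59.0% in NOD/ShiLtJ and a median within-strain SD of 15.3 points. The widest range, at 30738858, went from 6.67% in 129S1/SvImJ (0%, 0% and 20%) to 71.1% in DBA/2J (33.3%, 80.0% and 100%), with an adjusted p of 0.805 (limma F test).

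Group 4 lay past Mir335, a microRNA gene inside Mest (6:30741299 to 30741396) at which no member was read. Its strain means ran from 89.6% ± 7.88 (SD, n = 3) in C57BL/6J to 96.5% ± 4.15 (SD, n = 3) in DBA/2J. The C57BL/6J samples had 84.0%, 86.1% and 98.6%, and the DBA/2J samples 91.8%, 98.4% and 99.4%. The permutation test gave F = 1.22 (adjusted p = 0.672); without C57BL/6J replicate 4, the sample at 98.6%, it gave F = 3.90 (adjusted p = 0.0434, against 0.0434 to 0.895 over all 27 samples left out in turn). The widest range, at 30742829, came from C57BL/6J with 0%, 66.7% and 100%, against 80.6% to 100% in the means of the other strains (limma F test, adjusted p = 0.677). C57BL/6J is also the strain whose files name the mitochondrial chromosome differently from the files of the other 8 strains, and any part of this in its values was not tested.

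At the single position of group 5, 30752558, CAST/EiJ had 0%, 33.3% and 100% (44.4% ± 50.9, SD, n = 3). PWK/PhJ had 75.0%, 100% and 100%, and the other 7 strains had 100% in all 21 samples. One CAST/EiJ sample was thus at the level of the other strains. It was the member with the lowest p outside the lower-coordinate end (limma F test, adjusted p = 0.142). The permutation test gave F = 3.26 (adjusted p = 0.302), and without CAST/EiJ replicate 5, the sample at 100%, F = 27.7 (adjusted p = 0.0127, against 0.0127 to 0.60 over all 27 samples left out in turn). CAST/EiJ was lowest here and highest at the core.

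In contrasts of single strains with C57BL/6J, group 5 was the one position called: it was 55.6 points lower in CAST/EiJ (limma, adjusted p = 0.0428), that is 1 of 40 members against 1.70% of all tested positions. PWK/PhJ, NOD/ShiLtJ and WSB/EiJ had 0 of 40 called each, against 1.87%, 0.418% and 0.536%. The 4 contrasts share the C57BL/6J samples. The strain means of the core and of the other groups correlated, over 9 strains, at r = -0.159 for group 2, -0.0348 for group 3, 0.434 for group 4 and -0.750 for group 5. These are descriptions, and the last rests on CAST/EiJ and PWK/PhJ, the other 7 strains all being at 100%.

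Positions that missed the rule filled some gaps. Of the 70 other positions in the span, 51 were listed in no sample of at least 1 strain, and 14 fell short in 1 strain only: 7 in PWK/PhJ, 4 in WSB/EiJ, 2 in DBA/2J and 1 in A/J. The 7 that fell short in PWK/PhJ all lay 24 to 307 bp past the second start, and 3 of them were the best-read positions inside that start's window. PWK/PhJ listed 30738091 and 30738092 in no sample, and each of the others in 1 sample, at 0%. At 30738074, the C inside the CCGG of the window, the mean was 15.3% over the 24 samples that listed it, with 0% in the A/J and C57BL/6J means and 30% in DBA/2J. At 30738091 and 30738092 the means were 15.1% and 23.6% over 23 samples each, and CAST/EiJ had 16.7% and 23.6% there. At 30738092 the strain means ran from 6.67% in NOD/ShiLtJ to 41.7% in NZO/HlLtJ, so CAST/EiJ lay inside the range of the others. The other 4 positions listed in that window were read in 4 to 8 samples each, with means of 37.5% to 75.0%. At 30732802, the other strand of the first core CpG, which WSB/EiJ listed in 1 sample, CAST/EiJ had the highest mean at 100%, and the single WSB/EiJ value was 80.0%. PWK/PhJ followed at 78.6%, 129S1/SvImJ at 75.0%, A/J at 47.6%, NOD/ShiLtJ at 35.6%, C57BL/6J at 33.3%, DBA/2J at 24.4% and NZO/HlLtJ at 16.7%. 129S1/SvImJ thus stood higher and NOD/ShiLtJ lower in the order than at the core. Why a strain lacks a position was not tested.

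Set against other imprinted genes, the lower-coordinate end of Mest had a wide strain range. Over the 17 positions within 1 kb of it the strain means ran from 36.5% ± 10 (SD, n = 3) in DBA/2J to 86.1% ± 4.02 (SD, n = 3) in CAST/EiJ, a range of 49.6 points. Of 23 other listed imprinted genes, 21 had at least 5 positions within 1 kb of an end. Of their 24 ends read, 16 had a mean between 35% and 65%, and over these the range was 4.30 to 28.2 points (median 14.4). Group 3 of Mest, past the second start, had a range of 12.4 points over its 18 positions. It was formed by gaps and not by a 1 kb window, and its parts ranged more widely. Its 5 positions at 5352 to 5360 bp ranged over 36.1 points, at a median within-strain SD of 38.7. Its 9 positions at 5748 to 5828 bp ranged over 14.3 points. Its 4 positions at 4604 to 4870 bp had a mean of 20.2%, outside 35% to 65%. The 49.6 points describe the lower-coordinate end of Mest, and at this scatter a strain difference past the second start is not settled. Among the 16 ends of other imprinted genes, Mcts2 was the one with a range of at least 25 points, at 28.2 (DBA/2J 61.4%, NOD/ShiLtJ 33.2%). CAST/EiJ was above C57BL/6J at 12 of these 16 ends and below it at 4, and the difference ran from -15.3 to 22.0 points (median 4.95), against 47.5 points at the lower-coordinate end of Mest. The ends of Peg10 and Sgce are the same 18 positions, and both count among the 4, and the windows of both Mcts2 ends overlap. CAST/EiJ was at 57.6% against 35.6% in C57BL/6J at the upper-coordinate end of Mcts2, a retrogene. At the lower-coordinate end of H19, a non-coding RNA gene, it was at 59.1% against 43.7%. At Plagl1, a zinc finger gene, the values were 42.0% and 40.8%, and at Peg10, a retrotransposon-derived gene, 38.6% and 52.1%. Among 560 ends of protein-coding genes with a mean between 35% and 65%, the median range was 20.4 points, and 29 ranged at least as widely as Mest. No test was made, since Mest was chosen for this difference.

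**Figure D5:**
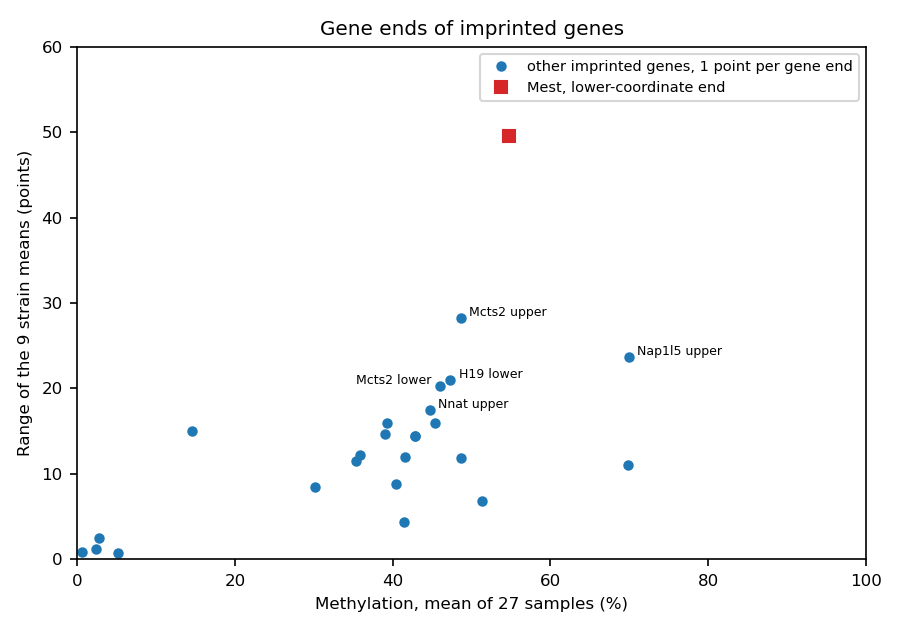
Range of the 9 strain means (y axis, percentage points) against the mean over 27 samples (x axis, percent) for the ends of imprinted genes with at least 5 positions within 1 kb. The lower-coordinate end of Mest stands at a range of 49.6 points, and the next is the upper-coordinate end of Mcts2 at 28.2.

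Ends of neighbouring genes were read at low or high levels. Of 18 genes listed as neighbours, of which Nrf1 and Mkln1 lie over 500 kb away, 11 had an end that could be read, and over their 13 ends the strain range was 0.324 to 6.89 points. None of the 13 had a mean between 35% and 65%, where a range like that of Mest could show, so they give no comparison at its level. The end of Copg2 that lies away from Mest had a mean of 0.443% over 91 positions, and Klf14, an imprinted gene expressed from the maternal copy, had 7.22% with a range of 2.32 points. Cpa4, a carboxypeptidase gene, was methylated at 93.3% with a range of 6.89 points. Several ends share a window, such as Copg2 and Tsga13.

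Other gene ends followed the samples of Mest only loosely. Among 482 ends of protein-coding genes off chromosome 6 with at least 5 positions and a strain range of at least 25 points, the closest over the 27 samples were Tor4a (r = 0.630), Hlx (r = 0.625), Sctr (r = 0.622), Tmem200b (r = 0.618) and Ccdc121 (r = 0.611). At Hlx, a homeobox gene, CAST/EiJ had 46.0% and the other 8 strains 7.65% to 13%. At Sctr, the secretin receptor gene, CAST/EiJ had 49.5% and PWK/PhJ 50%, against 21.6% to 34.1% elsewhere. CAST/EiJ and PWK/PhJ were the highest strains at all 5 ends. These ends were chosen for their correlation with Mest, where the same strains were highest, so this follows largely from the choice. NOD/ShiLtJ, which had rank 3 or 4 at the core, had rank 3 at Ccdc121, 4 at Hlx, 6 at Tor4a and Tmem200b and 7 at Sctr.

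The libraries listed 2904787 to 3156965 positions each and 54 to 57 of the 57 members. Mean methylation over 1692453 positions listed in all samples was 27.2% to 28.6%, with strain means of 28.5% in PWK/PhJ, 28.3% in A/J, 28.2% in CAST/EiJ and 27.4% in C57BL/6J. Over the 9 strains the overall level and the core mean correlated at r = 0.597, as a description, and A/J was high in the first and low in the second. The part of the overall level in the core difference was not tested. Samples of 1 strain correlated at 0.9492 to 0.9736. Among gene ends listed as unmethylated in hepatocytes, Apoa2, an apolipoprotein gene, was at 0.805% and Hnf4a, a transcription factor gene, at 7.94%. No blood cell marker could be read. The endothelial gene Kdr had 1.84% at its upper-coordinate end and 67.1% at its lower, where CAST/EiJ had the lowest mean at 48.8% and PWK/PhJ had 56.7%, against 77.2% in C57BL/6J. Of the stellate cell genes, all 3 were read: Col1a1 at 46.1% (range 19.4 points, C57BL/6J highest at 53.5%), Pdgfrb at 41.9% (range 19.2 points, CAST/EiJ highest at 53.1%) and Lrat at 5.93% (range 7.58 points, PWK/PhJ highest at 11.8%). The part of other cell types in the strain difference at Mest was not tested.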

How the data were processed

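The authors deposited 1 list per sample of single positions with a percent methylation from 0 to 100, per the file headers, without read counts, so the depth of each value is not known and counting error is not stated. The submitters' processing notes name Trim Galore 0.6.3, Bowtie2, Bismark 0.22 and the builds GRCm38 and mm10; the coverage filter is not given in the sources used here. Of 260058 positions in RefSeq promoter windows listed in 2 of 3 samples of every strain, 99.96% fell on a CG of GRCm38.p6. C57BL/6J files name the mitochondrial chromosome M and the others MT.

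A count model was planned; as the files hold percentages, the moderated F test of limma was run on log2((percent + 5)/(100 - percent + 5)) with strain as factor, over positions with a mean of 2.5% to 97.5%, adjusted by Benjamini-Hochberg over 868536 positions. It was computed in Python 3.11.15 (numpy 2.4.6, scipy 1.17.1) and checked against limma 3.58.1 (R 4.3.3) and on simulated data. Group means were compared by a permutation test of F. Members and lists were chosen with earlier results of these data known. Values are given for the widest position of each group and the edges of the variable stretch, for neighbours and listed imprinted genes, and for the 5 gene ends most correlated with Mest. Exons and introns were not analysed here. Alternatives covered the offset, scale, listing, mean filter, strands, thresholds, gaps, windows, a replicate block and leaving out each sample.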

Additional observations from a re-analysis of the deposited data

How the results depend on the processing

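Of 281 alternatives computed, 261 kept the result; all are counts, lengths, ranges or F values, which have no direction to reverse. The strain range at the lower-coordinate end was 58.5 points with positions listed in all 27 samples, 40.9 within 500 bp, 34.2 within 2 kb and 58.3 over the core (chosen after seeing the data); without 1 replicate it was 47.4 to 54.7. The variable stretch was 2508 bp with strands averaged, 20147 bp at 10 points, 92 bp and 418 bp when stopped at gaps over 250 bp and 1000 bp, 78 bp with the SD condition (chosen after seeing the data), and 6469 to 6844 bp without 1 replicate. Called members outside 1 kb numbered 1 under the replicate block, 1 in the CAST/EiJ contrast, and 0 to 1 without 1 replicate (1 without CAST/EiJ replicate 5). Over all positions 56820 were called when 1 sample of every strain sufficed (chosen after seeing the data), against 37638, and the contrasts called 14759 (CAST/EiJ), 16213 (PWK/PhJ), 3632 (NOD/ShiLtJ) and 4653 (WSB/EiJ); without 1 replicate the F test called 33847 to 39199. F for groups 2 to 5 without 1 replicate was 0.552 to 1.31, 0.284 to 0.690, 0.762 to 3.90 and 1.70 to 27.7. With the replicate block, group 5 had F = 24.7 (adjusted p = 1.20e-04 in a permutation test); number 5 is held by 1 CAST/EiJ sample, which the block then fits exactly. The numbers do not pair samples: same-numbered samples of different strains had a mean correlation of 8.77e-04 (-0.00521 to 0.00671), 9 of 27 samples correlated best with their own number, and the block called 27654 positions. Where the cause of a change is not stated, the cause was not tested. The unknown depth limits all values.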
